A study of Homo sapiens with 12 samples.

Results

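Benzyl isothiocyanate, an electrophilic compound released by cruciferous plants, was compared with its solvent in MDA-MB-231 cells. The label gives the compound as BITC, read here from knowledge of the study. MDA-MB-231 is a human breast cancer line that lacks oestrogen, progesterone and amplified ERBB2 receptors. Vehicle cultures received 0.02% DMSO and 0.1% water, BITC cultures 2 µM of the compound in the same solvents, and both were harvested with trypsin after 24 h. Each group holds 3 RNA sequencing libraries (vehicle libraries 1 to 3 and BITC libraries 1 to 3), which are 6 of the 12 libraries in the series. The other 6 received 1 µM ZA, read as zoledronic acid, alone or with BITC. The dishes were plated in triplicate per the labels, but no source used here says whether they were grown apart, so the p-values may reflect technical spread alone.

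The members are the genes of the deposited table of this comparison: 24775 of the 27412 genes with counts in the series. Of these, 14296 passed a filter on low counts and were tested, and 10479 were not. Levels are normalized CPM, the counts of a gene scaled to library size. A gene was called when its adjusted p in edgeR's quasi-likelihood test (Benjamini-Hochberg over all genes tested) was under 0.05, and "rose" and "fell" are used of called genes. In bulk RNA, a change in the share of cells that express a gene and a change per cell cannot be told apart.

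Electrophiles such as isothiocyanates are known to react with cysteines of KEAP1, the adaptor that marks the transcription factor NRF2 (gene NFE2L2) for destruction. NRF2 then accumulates, pairs with small MAF proteins and binds antioxidant response elements, from which genes for glutathione synthesis, thioredoxin reduction, NADPH supply, quinone reduction and iron storage are transcribed. Isothiocyanates are also conjugated to glutathione and exported from cells, which draws on the same pathway.

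The core of that element is written TGACNNNGC on either strand, and the promoters of 3 NRF2 targets that rose are shown because they carry it. The windows run from 250 bases before to 50 bases after the annotated start, on the strand of the gene, from RefSeq on GRCh38.p14, and capitals mark the matches. GCLM encodes the modifier subunit of glutamate-cysteine ligase, which controls the rate of glutathione synthesis (minus strand, chr1:93909381-93909680), TXNRD1 the cytosolic thioredoxin reductase (plus strand, chr12:104215529-104215828), and PIR pirin, an iron-binding nuclear protein (minus strand, chrX:15493284-15493583).
GCLM: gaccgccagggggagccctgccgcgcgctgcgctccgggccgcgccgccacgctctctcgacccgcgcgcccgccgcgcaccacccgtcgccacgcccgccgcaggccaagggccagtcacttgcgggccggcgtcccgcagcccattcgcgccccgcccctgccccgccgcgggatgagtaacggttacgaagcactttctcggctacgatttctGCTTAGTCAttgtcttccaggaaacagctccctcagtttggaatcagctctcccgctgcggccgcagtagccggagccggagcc
TXNRD1: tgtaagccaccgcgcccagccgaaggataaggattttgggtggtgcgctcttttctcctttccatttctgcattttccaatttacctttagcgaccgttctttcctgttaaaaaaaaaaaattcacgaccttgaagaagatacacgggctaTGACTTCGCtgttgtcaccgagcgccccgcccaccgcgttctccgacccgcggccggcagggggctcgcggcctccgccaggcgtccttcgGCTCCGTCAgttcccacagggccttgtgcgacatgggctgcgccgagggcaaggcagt
PIR: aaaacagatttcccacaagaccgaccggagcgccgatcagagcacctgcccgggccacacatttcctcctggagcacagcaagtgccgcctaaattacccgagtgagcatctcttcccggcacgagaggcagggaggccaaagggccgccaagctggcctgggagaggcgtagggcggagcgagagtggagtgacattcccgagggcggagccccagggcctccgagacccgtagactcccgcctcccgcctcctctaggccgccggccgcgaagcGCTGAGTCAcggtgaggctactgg
The core was found in 5 of the 20 NRF2 targets that rose and have a promoter sequence. Of all genes with a promoter sequence, it was found in 88 of 481 called higher (18.3%), in 86 of 592 called lower (14.5%) and in 1546 of 10117 tested (15.3%). Of the 5 targets that rose with a match, the 2 not shown were PGD and ME1. A match is a description of letters, and a window without one says nothing of elements farther away.

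The totals in the 6 libraries lay between 16099530 and 17375452 counts. All 7 markers of the line were tested, among them VIM, CD44 and AXL, with a summed level of 5343 to 5600 CPM. Of the 7, 3 fell (AXL, CAV1 and EGFR) and 4 had a positive log2 fold change. Of 9 luminal markers 6 had counts and 4 were tested (KRT19, ERBB2, XBP1 and GATA3), with a sum of 411 to 428 CPM with vehicle and 371 to 409 CPM with BITC. ERBB2 fell by 0.20 on the log2 scale, ESR1, PGR and FOXA1 had no counts in the table, and CDH1 had 3 to 7 counts per library. The summed markers lay between 21.6 and 30.8 CPM for fibroblasts (2 of 6 tested, 0 called), between 2.57 and 3.86 CPM for endothelial cells (1 of 5 tested, 0 called) and between 0.810 and 1.72 CPM for leukocytes (1 of 6 tested, 0 called). The leukocyte markers PTPRC, CD68 and LYZ had 0 to 5 counts per library. Mitochondrially encoded genes took 3.55% ± 0.061 of the counts with vehicle and 3.94% ± 0.136 with BITC (SD, n = 3), without overlap (exact two-sided permutation p = 0.1, the smallest that 3 against 3 allow).

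Of the 14296 genes, 1397 were called (9.77%): 641 rose (4.48%) and 756 fell (5.29%). The changes were small. The median fold of the called genes was 1.17, only 332 changed at least 1.25-fold and 106 at least 1.5-fold, of which 61 rose and 45 fell. At least 2-fold changes were called for 30 genes, 22 higher and 8 lower, and 26 of them had a mean under 5 CPM. Of the other 4, 3 were pseudogenes and 1 was MT-ATP8. The groups did not overlap in 1330 of the called genes, against 25.7% of all genes tested. Calls followed depth: 0.976% of genes under 1 CPM were called and 23.1% of those over 100 CPM. With a spread shared over all 12 libraries, 266 genes were called (1.78% of 14950), and 265 of these were among the 1397. That count rests on ZA library 1, which stands apart from its replicates: the same model without it called 1496 of 15275 genes (9.79%), 669 higher and 827 lower.

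The direction of the calls went with base composition. The median GC content of the transcripts was 42.8% in genes that rose, 56.9% in genes that fell and 48.1% in all genes tested. Among genes with at least 5 CPM, 114 of 1158 in the GC-poorest decile rose and 8 fell, while 12 of 1032 in the GC-richest decile rose and 190 fell. BITC libraries 1 and 2 carried this slope and BITC library 3 hardly did: relative to the vehicle mean, the median log2(CPM + 1) of the GC-richest decile was −0.12 and −0.13 in libraries 1 and 2 and −0.02 in library 3. With offsets that removed trends on GC content and length from each library, 1294 genes were called (691 higher, 603 lower), and 899 of the 1397 were called the same way. The share of higher calls moved from 45.9% to 53.4%. BITC library 3 also stood apart from its replicates by counts (chi-square per gene 3.91 and 3.97, against 2.35 to 2.73 for the other pairs of replicates), and without it 2006 genes were called, 906 higher and 1100 lower. Counts written below as with the offsets come from that fit. Counts of called list members are to be read against 4.48% of all genes higher and 5.29% lower. The depth of the members matters as well, since calls followed depth.

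**Figure D1:**
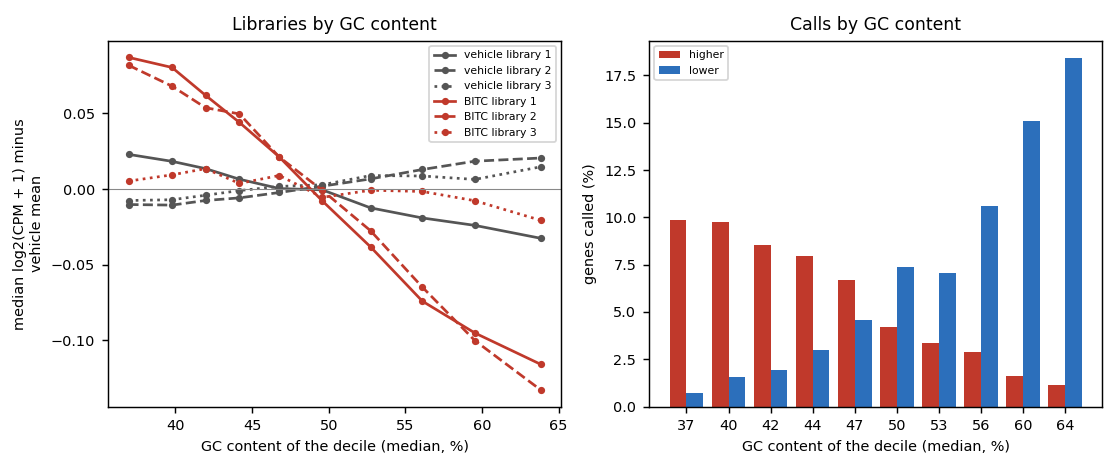
Left, the median log2(CPM + 1) of each library minus the vehicle mean (y axis) in deciles of GC content (x axis, median percent; genes with at least 5 CPM); lines are the 6 libraries. Right, the percentage of genes called higher (red) or lower (blue) in each decile; BITC libraries 1 and 2 slope downwards from GC-poor to GC-rich genes and BITC library 3 stays near 0.

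NRF2 targets were the group with the most called members. Of 39 on the list, 37 were tested, and 27 rose while 0 fell. This is 73.0% of the tested members against 4.48% of all genes called higher. Their median log2 fold change was 0.34, against 0.00 for all genes. The count was 27 with the GC and length offsets, 22 in the 12-library model, 27 in that model without ZA library 1, and 25 without each library in turn. The summed level of the tested and untested members was 7034 to 7216 CPM with vehicle and 9967 to 10317 CPM with BITC. AKR1B10 and GPX2 were below the filter.

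NQO1, a quinone reductase and a standard readout of NRF2, lies on chr16:69706996-69726951 of GRCh38. NQO1 stood at 249, 242 and 258 CPM in vehicle libraries 1 to 3 and at 434, 439 and 434 CPM in BITC libraries 1 to 3. The 3 BITC libraries lie within 5 CPM of each other and far above vehicle, with log2 fold change 0.80 with SE 0.0354, edgeR adjusted p = 1.52e-22. In the vehicle libraries PIR had 7.07, 5.40 and 5.44 CPM, and in the BITC libraries 11.5, 10.3 and 13.3 CPM. All BITC libraries of PIR exceed all vehicle libraries, with log2 fold change 0.97 with SE 0.14, edgeR adjusted p = 2.22e-06. The absence of overlap was a condition for naming PIR and AKR1C3, the gene given next. The aldo-keto reductase AKR1C3 reduces steroid and quinone carbonyls. The level of AKR1C3 was 12.2, 11.2 and 12.5 CPM with vehicle and 23.3, 20.2 and 19.9 CPM with BITC. The groups did not overlap (log2 fold change 0.82 with SE 0.102, edgeR adjusted p = 9.12e-08). Its close relatives AKR1C1 and AKR1C2, named after their values were seen, had the largest log2 fold changes among the targets (1.498 and 1.88, adjusted p = 0.00157 and 0.0178 in edgeR). Their levels were 0.899 ± 0.504 CPM and 0.213 ± 0.0881 CPM with vehicle, and reads can be shared between these paralogs. CBR3, another carbonyl reductase, had a log2 fold change of −0.20 (adjusted p = 0.459 in edgeR) and was not called.

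Glutathione genes rose at the steps of cystine import, synthesis and reduction. Of 25 tested genes of glutathione synthesis and conjugation, 8 rose and 0 fell (9 and 0 with the GC and length offsets), with a median log2 fold change of 0.06. SLC7A11, the cystine importer that supplies cysteine for glutathione, lies on chr4:138164097-138242349. For SLC7A11, vehicle gave 121, 119.6 and 121 CPM and BITC gave 207, 215 and 193 CPM. BITC library 3 was the lowest of the treated libraries and still above all vehicle libraries, with log2 fold change 0.77 with SE 0.0422, edgeR adjusted p = 9.03e-19. GCLM stood at 192, 194 and 186 CPM in vehicle libraries 1 to 3 and at 265, 261 and 243 CPM in BITC libraries 1 to 3. With log2 fold change 0.43 with SE 0.0391, edgeR adjusted p = 2.84e-11, GCLM carries the match 34 bases before its start shown above. The catalytic subunit GCLC rose from 32.3 ± 1.5 to 40.3 ± 1.6 CPM (log2 fold change 0.32 with SE 0.0691, edgeR adjusted p = 0.00124). Glutathione reductase, GSR, which regenerates reduced glutathione, stood at 63.8, 66.1 and 65.1 CPM with vehicle and 84.3, 86.7 and 86.3 CPM with BITC. Its groups did not overlap (log2 fold change 0.40 with SE 0.0504, edgeR adjusted p = 1.35e-07). The microsomal transferase MGST1 had 80.3, 80.99 and 74.4 CPM with vehicle and 119, 113 and 110.4 CPM with BITC, again without overlap (log2 fold change 0.54 with SE 0.0486, edgeR adjusted p = 1.86e-11). GSTM3, a mu-class transferase, rose from 67.8 ± 5.04 to 91.5 ± 3.14 CPM. The transferases GSTP1 and GSTO1, the synthetase GSS and the exporter ABCC1 were not called, with log2 fold changes of −0.04, 0.11, 0.07 and −0.03. SLC3A2, the chain that SLC7A11 pairs with, rose by 0.11 on the log2 scale and the call was lost for SLC3A2 without any 1 of the 6 libraries (largest edgeR adjusted p 0.198).

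In the thioredoxin system, which reduces protein disulphides, 4 of 17 tested genes rose and 1 fell (5 and 2 with the offsets). In the vehicle libraries TXNRD1 had 1010.1, 993 and 972 CPM, and in the BITC libraries 1341, 1355 and 1339 CPM. The groups of the reductase were far apart relative to their spread (log2 fold change 0.44 with SE 0.0309, edgeR adjusted p = 4.76e-15). Thioredoxin itself, TXN, had 407, 403 and 404 CPM with vehicle and 544, 503 and 501 CPM with BITC (log2 fold change 0.35 with SE 0.0351, edgeR adjusted p = 3.35e-10). PRDX1 and GLRX3 rose by 0.13 and 0.14, and calls were lost for PRDX1 without vehicle library 1 or 2 or BITC library 1 (largest edgeR adjusted p 0.192) and GLRX3 without vehicle library 1 or 2 or BITC library 1 (largest edgeR adjusted p 0.205). PRDX5, the mitochondrial and peroxisomal peroxiredoxin, was the one that fell, from 37.4 ± 3.92 to 30.6 ± 2.83 CPM, and the call was lost for PRDX5 without vehicle library 2 or BITC library 1 or 2 (largest edgeR adjusted p 0.191). SRXN1, which repairs overoxidized peroxiredoxins, had 4.62, 4.48 and 3.85 CPM with vehicle and 6.10, 5.29 and 5.55 CPM with BITC. The groups did not overlap, but at this depth the difference did not pass (log2 fold change 0.39 with SE 0.171, edgeR adjusted p = 0.157).

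NADPH supply changed mainly in the pentose phosphate pathway. Of 14 tested genes, 5 rose and 0 fell (5 and 1 with the offsets). Transaldolase, TALDO1, had 192, 206 and 215 CPM with vehicle and 301, 284 and 303 CPM with BITC, with no overlap (log2 fold change 0.53 with SE 0.0398, edgeR adjusted p = 3.11e-14). PGD, TKT and the malic enzyme ME1 rose by 0.20, 0.18 and 0.32 on the log2 scale, each without overlap. TKT had an adjusted p of 0.0525 in the 12-library model and of 2.91e-05 in that model without ZA library 1. IDH1 and IDH2 had log2 fold changes of −0.01 and −0.02 and were not called.

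Iron storage genes were among the most changed of the well-counted genes. Of 20 tested genes of iron and heme handling, 4 rose and 3 fell, with and without the offsets. The level of FTL was 2105, 2136 and 2195 CPM with vehicle and 3631, 3471 and 3624 CPM with BITC. FTL encodes the light chain of ferritin, which rose without overlap (log2 fold change 0.74 with SE 0.0303, edgeR adjusted p = 1.61e-23). For FTH1, vehicle gave 488, 492 and 519 CPM and BITC gave 831, 744 and 808 CPM. The heavy chain, which oxidizes iron, changed by about as much (log2 fold change 0.67 with SE 0.0362, edgeR adjusted p = 1.75e-18). Per length, the light chain stood at 2441 ± 52 FPKM with vehicle and 4038 ± 102 FPKM with BITC and the heavy chain at 246 ± 8.14 FPKM with vehicle and 388 ± 22.1 FPKM with BITC. Ferritin genes have many processed copies, and the copy FTH1P8, outside the naming rule, also rose from 0.97 ± 0.287 to 2.71 ± 0.205 CPM, so reads may be shared. TFRC, the transferrin receptor that imports iron, rose from 615 ± 12.6 to 742 ± 29.2 CPM (log2 fold change 0.27 with SE 0.0336, edgeR adjusted p = 9.65e-08). ALAS1, the first enzyme of heme synthesis, rose by 0.25, and the ferrireductase STEAP3 and the heme oxygenase HMOX2 fell by 0.27 and 0.25 on the log2 scale. The call was lost for HMOX2 without BITC library 2 (largest edgeR adjusted p 0.076). HMOX1, the inducible heme oxygenase, is a textbook NRF2 target but had 16.6, 17.4 and 12.5 CPM with vehicle and 15.9, 15.6 and 19.1 CPM with BITC. Its groups overlapped and it was not called (log2 fold change 0.12 with SE 0.111, edgeR adjusted p = 0.559).

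Among 13 genes of NRF2, its partners and its repressors, 4 rose and 0 fell, as with the offsets. NFE2L2 itself had 174, 167 and 167 CPM with vehicle and 198, 195 and 196 CPM with BITC, without overlap (log2 fold change 0.21 with SE 0.0388, edgeR adjusted p = 0.000133). In the 12-library model its adjusted p was 0.0982, and 7.98e-05 in that model without ZA library 1. The small MAF partners MAFG and MAFF both rose by 0.25 (the call was lost for MAFF without vehicle library 3 (largest edgeR adjusted p 0.0679)), and SQSTM1, which binds KEAP1 and delivers it to autophagy, rose from 234 ± 6.61 to 289 ± 8.2 CPM (log2 fold change 0.30 with SE 0.0371, edgeR adjusted p = 6.33e-08). KEAP1 stood at 126, 126 and 131 CPM with vehicle and 128, 123 and 134 CPM with BITC, with a log2 fold change of 0.01 that was not called. BACH1, a repressor at the same elements, and MAFK were not called either, with log2 fold changes of 0.13 and −0.19.

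**Figure D2:**
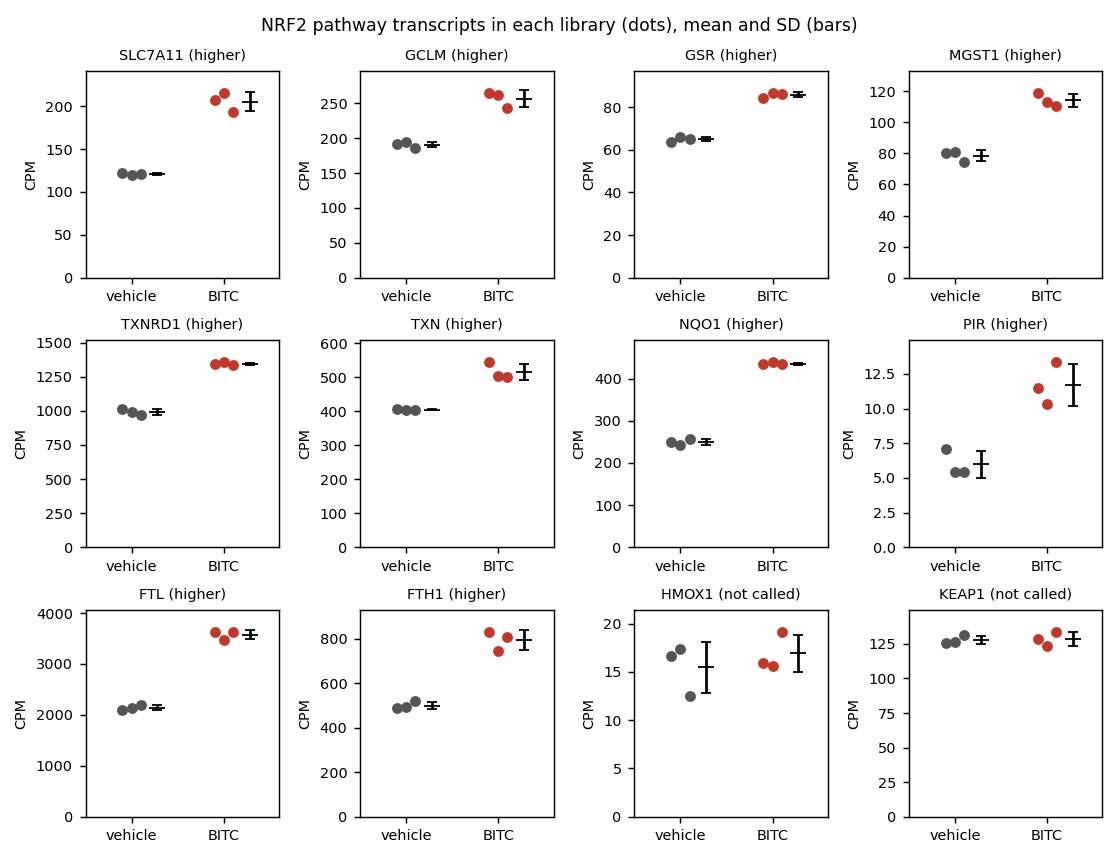
Normalized level in CPM (y axis, from 0) of 12 NRF2 pathway genes in the 3 vehicle and 3 BITC libraries (dots), with mean and SD (bars). In the 10 genes called higher the groups do not overlap, while the dots of HMOX1 and KEAP1 do.

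The aryl hydrocarbon receptor, AHR, is a sensor of foreign aromatic compounds that shares NQO1 with NRF2 as a target. Of 9 tested genes of its pathway, 4 rose and 0 fell, one of them NQO1 (4 and 0 with the offsets). CYP1B1, a cytochrome of xenobiotic and oestrogen metabolism, had 255, 246 and 257 CPM with vehicle and 306, 300.2 and 284 CPM with BITC (log2 fold change 0.23 with SE 0.037, edgeR adjusted p = 1.43e-05). CYP1A1, the classical AHR target, rose from 8.20 ± 0.572 to 11.02 ± 1.36 CPM, and TIPARP, a repressor of AHR, by 0.23 on the log2 scale. Calls were lost for CYP1A1 without vehicle library 1 or 3 or BITC library 3 (largest edgeR adjusted p 0.133) and TIPARP without BITC library 2 (largest edgeR adjusted p 0.0631). AHR and AHRR were not called (log2 fold changes 0.13 and 0.00).

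Some genes of lipid synthesis fell, and no tested member of their lists rose. Of 21 tested genes of the mevalonate and sterol pathway, 0 rose and 4 fell, and 19 had a negative log2 fold change. The median was −0.13, and 6 fell with the GC and length offsets. DHCR7, the reductase of a last step to cholesterol, fell from 109 ± 5.21 to 85.8 ± 2.4 CPM (log2 fold change −0.34 with SE 0.048, edgeR adjusted p = 1.37e-06). Lanosterol synthase, LSS, fell by 0.24. CYP51A1 fell by 0.63, but its level was 6.10 ± 0.869 CPM with vehicle and the call was lost for CYP51A1 without vehicle library 2 or BITC library 1 or 2 (largest edgeR adjusted p 0.187). Early enzymes of the pathway were not called: HMGCS1 had a log2 fold change of −0.14 (adjusted p = 0.126 in edgeR) and FDPS, which makes farnesyl diphosphate, of −0.13. With the offsets HMGCS1 passed (adjusted p = 0.0129 in edgeR).

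Fatty acid synthesis showed the same direction, with 0 of 18 tested genes higher and 5 lower (0 and 5 with the offsets). SCD, which introduces the double bond of oleate, lies on chr10:100347124-100364834. SCD stood at 517, 502 and 492 CPM in vehicle libraries 1 to 3 and at 403, 401 and 382 CPM in BITC libraries 1 to 3. The groups did not overlap, with log2 fold change −0.35 with SE 0.0345, edgeR adjusted p = 2.61e-10. In the vehicle libraries FASN had 528, 528 and 542 CPM, and in the BITC libraries 437, 441 and 462 CPM. The fatty acid synthase call held with the offsets at a log2 fold change of −0.11, against −0.25 without them. ACACA and ACLY, which make malonyl-CoA and cytosolic acetyl-CoA, fell by 0.23 and 0.14. Of 17 tested genes of SREBP regulation and sterol transport, 0 rose and 6 fell (7 with the offsets). Among these were the regulators SREBF1 and SREBF2, which drive the synthesis genes, INSIG1, which restrains them, and the cholesterol exporters ABCA1 and ABCG1. SREBF2 fell from 145 ± 6.27 to 124 ± 5.73 CPM and ABCA1 from 70.3 ± 3.27 to 58.4 ± 3.73 CPM, while SREBF1 was not called with the offsets (adjusted p = 0.502 in edgeR). Calls were lost for SREBF1 without vehicle library 2 or BITC library 2 (largest edgeR adjusted p 0.0702), ABCG1 without vehicle library 1 or 2 or BITC library 1 or 2 (largest edgeR adjusted p 0.209) and INSIG1 without vehicle library 2 or 3 or BITC library 3 (largest edgeR adjusted p 0.126).

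Keratins and genes of epithelial junctions had the lowest median log2 fold change of the pathway and cell structure lists, −0.24. Of 19 tested, 0 rose and 10 fell, against 5.29% of all genes called lower, and with the offsets 1 rose and 9 fell. The level of KRT7 was 330.4, 327 and 323 CPM with vehicle and 255, 246 and 265 CPM with BITC. This keratin of simple epithelia fell without overlap (log2 fold change −0.36 with SE 0.0363, edgeR adjusted p = 5.03e-10). KRT8 fell from 683 ± 19.8 to 571 ± 33.2 CPM and KRT80 from 232 ± 0.541 to 201 ± 10.9 CPM. Periplakin, PPL, which links keratins to desmosomes, had 15.3, 18.2 and 17.7 CPM with vehicle and 10.96, 9.47 and 10.9 CPM with BITC (log2 fold change −0.71 with SE 0.11, edgeR adjusted p = 9.25e-06). The desmosomal genes DSP and JUP fell by 0.28 and 0.36. LLGL2, PKP3, EVPL and KRT18, outside the naming rule, completed the 10 with −0.58, −0.33, −0.23 and −0.15. The tight junction genes CLDN4, TJP1 and OCLN were not called, and CDH1, ESRP1 and GRHL2, the core epithelial genes, were below the filter. Of 14 mesenchymal genes, ZEB1 rose by 0.17 and AXL, a receptor kinase, fell from 1455 ± 18.1 to 1281 ± 15.6 CPM (log2 fold change −0.18 with SE 0.0304, edgeR adjusted p = 2.65e-05). The call was lost for ZEB1 without vehicle library 2 or 3 or BITC library 1 or 2 (largest edgeR adjusted p 0.221).

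The following lower genes belong to no list. ITGB4, the integrin of hemidesmosomes, fell from 183 ± 8.22 to 133 ± 1.45 CPM (log2 fold change −0.46 with SE 0.0415, edgeR adjusted p = 1.85e-11). TGM2, which cross-links matrix proteins, fell from 907 ± 30.8 to 706 ± 20 CPM, and thrombospondin 1, THBS1, from 2863 ± 10.9 to 2343 ± 79.3 CPM. IGFBP4, which binds insulin-like growth factors, had 1168, 1218 and 1196 CPM with vehicle and 892, 879 and 927 CPM with BITC (log2 fold change −0.41 with SE 0.0318, edgeR adjusted p = 1.51e-13). Perlecan (HSPG2), filaggrin (FLG) and the scaffold AHNAK fell by 0.40, 0.48 and 0.29 on the log2 scale.

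More collagens and laminins fell than rose, with 9 of 23 tested genes lower and 1 higher, but with the offsets 5 fell and 3 rose. LAMA5, a chain of epithelial laminins, fell from 306 ± 1.58 to 239.6 ± 9.95 CPM (log2 fold change −0.35 with SE 0.037, edgeR adjusted p = 9.97e-10), and its log2 fold change with the offsets was −0.18. COL5A1, COL4A2 and COL12A1 fell by 0.33, 0.34 and 0.19, and all 3 kept the call with the offsets, while COL18A1 did not (adjusted p = 0.214 in edgeR). COL6A3, outside the naming rule, was the one that rose, by 0.26. LAMB1, LAMB3 and LAMC1 had log2 fold changes of 0.04, 0.02 and 0.04.

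Matrix proteases fell at the plasminogen activators. Of 19 tested proteases and inhibitors, 5 fell and 2 rose (4 and 3 with the offsets). For PLAT, vehicle gave 131, 136 and 139 CPM and BITC gave 95.2, 92.7 and 99.9 CPM. Tissue plasminogen activator showed no overlap (log2 fold change −0.50 with SE 0.0451, edgeR adjusted p = 1.86e-11), and its log2 fold change with the offsets was −0.51. Urokinase, PLAU, had 329, 336 and 330.2 CPM with vehicle and 269.6, 275 and 289.7 CPM with BITC (log2 fold change −0.25 with SE 0.0361, edgeR adjusted p = 1.84e-06). The lysosomal protease CTSD fell from 271 ± 6.98 to 209 ± 21.7 CPM, a call absent in the 12-library model (adjusted p = 0.285 in edgeR) and made in that model without ZA library 1 (0.00033), whereas CTSL rose by 0.24. The inhibitors TIMP1 and TIMP2 went in opposite directions, by 0.14 and −0.12. Calls were lost for CTSL without vehicle library 3 (largest edgeR adjusted p 0.0593), TIMP1 without vehicle library 1 or 2 or BITC library 3 (largest edgeR adjusted p 0.203) and TIMP2 without vehicle library 2 or 3 (largest edgeR adjusted p 0.109).

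CEMIP, which binds and depolymerizes hyaluronan, was the only called gene of 9 tested in hyaluronan metabolism (with the offsets 1 gene also rose) and had the third largest fall among well-counted protein-coding genes. It lies on chr15:80779343-80951776. CEMIP stood at 95.8, 93.7 and 97.5 CPM in vehicle libraries 1 to 3 and at 56.4, 56.3 and 57.1 CPM in BITC libraries 1 to 3. Within each group the libraries differ by less than 4 CPM, and the groups are far apart (log2 fold change −0.76 with SE 0.0507, edgeR adjusted p = 1.13e-15). CD44, the hyaluronan receptor, and HAS2, a synthase, had log2 fold changes of 0.08 and 0.27 and were not called.

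Some activin, BMP and TGF-beta genes fell. Of 29 tested genes 0 rose and 6 fell (6 with the offsets), against 4.48% of all genes higher and 5.29% lower. INHBA, the subunit of activin A, had 23.3, 22.2 and 25.7 CPM with vehicle and 16.8, 14.3 and 13.5 CPM with BITC, with no overlap (log2 fold change −0.67 with SE 0.0969, edgeR adjusted p = 2.22e-06). FSTL3, a secreted activin antagonist, fell from 23.7 ± 0.785 to 16.96 ± 0.759 CPM (log2 fold change −0.49 with SE 0.0894, edgeR adjusted p = 0.000154), FSTL1, a related secreted glycoprotein, from 454 ± 0.731 to 393 ± 14.3 CPM, and TGFB2 from 153 ± 2.34 to 134 ± 4.82 CPM. The co-receptor TGFBR3 and the procollagen protease BMP1 fell by 0.27 and 0.28, and their calls were lost for TGFBR3 without vehicle library 2 or 3 or BITC library 2 (largest edgeR adjusted p 0.084) and BMP1 without vehicle library 2 or BITC library 2 (largest edgeR adjusted p 0.0736). The receptors TGFBR1, TGFBR2 and ACVR1B and the transducers SMAD2 and SMAD4 were not called, with log2 fold changes between −0.06 and 0.08.

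Secreted inflammatory and bone-active factors rose in a pair of genes. CXCL8 encodes the neutrophil chemokine interleukin 8 and lies on chr4:73740506-73743716. In the vehicle libraries CXCL8 had 18.6, 19.2 and 20.2 CPM, and in the BITC libraries 35.9, 33.2 and 33.97 CPM. The groups did not overlap (log2 fold change 0.83 with SE 0.0799, edgeR adjusted p = 1.25e-10). IL11, a cytokine that promotes osteoclast formation, had 22.7, 26.7 and 26.3 CPM with vehicle and 36.4, 35.4 and 37.5 CPM with BITC (log2 fold change 0.53 with SE 0.0766, edgeR adjusted p = 2.4e-06). These were the 2 called genes of 19 tested NF-kB targets and chemokines (3 rose with the offsets). Of 15 tested bone metastasis factors, CTGF (log2 fold change 0.15) rose beside them and 0 fell. Among 21 tested growth factor receptors and ligands, 5 rose and 5 fell (4 and 3 with the offsets). The ligands of the ERBB receptors NRG1, EREG and AREG rose by 0.32, 0.51 and 0.25, as did VEGFC by 0.28, and the fifth was EGF (0.77, at 2.27 ± 0.501 CPM with vehicle, outside the naming rule). Calls were lost for CTGF without vehicle library 1 (largest edgeR adjusted p 0.0506), VEGFC without vehicle library 1 or 2 or BITC library 1 (largest edgeR adjusted p 0.0902) and AREG without vehicle library 1 or 3 or BITC library 1 (largest edgeR adjusted p 0.063). IRS1, the adaptor of the insulin receptor, fell from 144 ± 7.16 to 118 ± 1.61 CPM (log2 fold change −0.29 with SE 0.0438, edgeR adjusted p = 5.12e-06). EGFR fell by 0.11 with overlapping groups and an adjusted p of 0.0498 in edgeR, next to the threshold, and lost its call without vehicle library 1, vehicle library 2, BITC library 1 or BITC library 3: ATP2B1 and PRKD2 were just inside it as well (both 0.0498), and TMEM250 and SH3RF3 just outside (0.0501 and 0.0502).

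Of 25 tested immediate early genes, 6 rose and 3 fell in the fit without offsets. The counts were 7 and 1 with the offsets, 4 and 1 with DESeq2 and 3 and 0 in the 12-library model. Without ZA library 1 that model gave 6 and 3, so the number of falls differed between fits. FOS rose from 22.3 ± 1.17 to 28.5 ± 1.88 CPM (log2 fold change 0.35 with SE 0.0824, edgeR adjusted p = 0.00317), and the ERK phosphatases DUSP5 and DUSP6 rose by 0.28 each. EGR1 and JUNB fell by 0.17 and 0.25, and with the offsets JUNB was not called. Calls were lost for EGR1 without vehicle library 2 or BITC library 1 (largest edgeR adjusted p 0.0713) and JUNB without vehicle library 1, 2 or 3 or BITC library 1 or 2 (largest edgeR adjusted p 0.113).

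**Figure D3:**
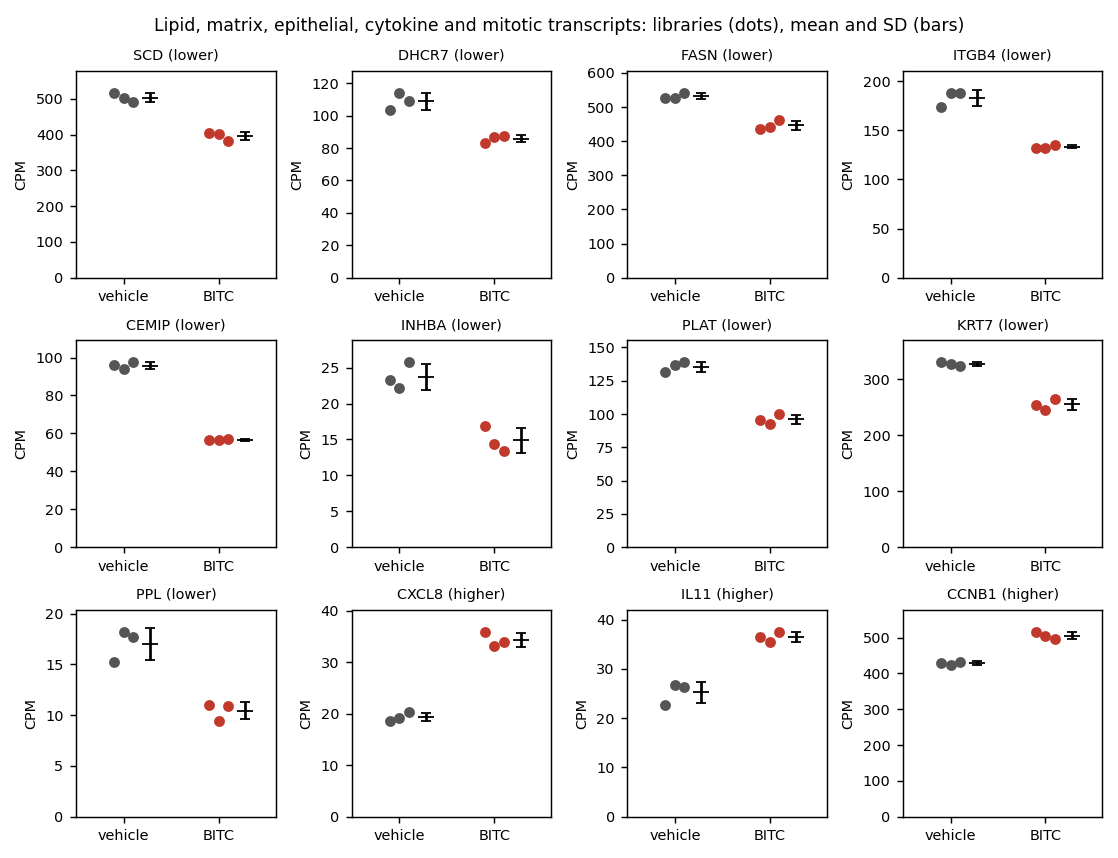
Normalized level in CPM (y axis, from 0) of 12 genes of lipid synthesis, matrix, epithelium, cytokines and mitosis in the 3 vehicle and 3 BITC libraries (dots), with mean and SD (bars). The groups do not overlap in any of the 12 genes, each of which passed the test.

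Some mitotic genes rose, by small amounts. Of 30 tested genes of G2/M and mitosis, 13 rose and 0 fell (10 with the offsets, 4 in the 12-library model and 13 in that model without ZA library 1), with a median log2 fold change of 0.11. Cyclin B1, CCNB1, had 430.5, 423 and 433 CPM with vehicle and 516, 504 and 497 CPM with BITC (log2 fold change 0.24 with SE 0.0335, edgeR adjusted p = 1.44e-06). Securin, PTTG1, rose by 0.25, and UBE2C, KIF20A and CDC20, which act in the exit from mitosis, by 0.18, 0.18 and 0.17. MKI67, the proliferation antigen, had 699, 697 and 708 CPM with vehicle and 644, 719.98 and 679 CPM with BITC and was not called. Of 31 replication genes 2 rose, among them RRM2 (log2 fold change 0.23), and 2 fell (4 and 2 with the offsets). CDKN1A, the p53-induced cell cycle inhibitor, was not called (log2 fold change −0.10 with SE 0.0548, edgeR adjusted p = 0.253). PMAIP1, the death gene NOXA, was the called gene of 19 cell cycle inhibitors and p53 targets, at 0.19, and was not called with the offsets (adjusted p = 0.241 in edgeR). It was also 1 of the 2 called of 24 BCL2 family and death receptor genes, with BCL2L1 at −0.12. That is 8.33% of the list, beside 9.77% of all genes tested. Calls were lost for PMAIP1 without vehicle library 3 or BITC library 1 (largest edgeR adjusted p 0.154) and BCL2L1 without vehicle library 1, 2 or 3 or BITC library 1 or 2 (largest edgeR adjusted p 0.246).

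HSP90AA1, the inducible cytosolic HSP90, rose from 3311 ± 17.2 to 3747 ± 62.2 CPM (log2 fold change 0.18 with SE 0.0291, edgeR adjusted p = 2.01e-05), while HSPA1A, the stress-induced HSP70, had 29.5, 31.02 and 29.5 CPM with vehicle and 21.99, 23.4 and 22.6 CPM with BITC and fell (log2 fold change −0.40 with SE 0.0792, edgeR adjusted p = 0.00039). Its near-identical copy HSPA1B fell by 0.23, and reads may be shared between the copies. DNAJB1 had a log2 fold change of −0.00 and was not called. In all 4 of 22 chaperones rose and 3 fell, and the counts with the offsets were also 4 and 3. Of 33 proteasome genes 6 rose and 0 fell, by 0.12 to 0.18, against 2 with the offsets, 0 in the 12-library model and 6 in that model without ZA library 1. The 6 are 18.2% of the list, beside 9.77% called of all genes tested and 23.1% of those over 100 CPM. The transcription factors of the integrated stress response ATF4 and DDIT3 were not called (0.05 and 0.27), and of 21 genes of that response SLC7A11 and SLC3A2 rose and PHGDH and SLC7A5 fell (4 and 2 with the offsets), with calls lost for PHGDH without vehicle library 3 or BITC library 1 or 2 (largest edgeR adjusted p 0.108) and SLC7A5 without vehicle library 1, 2 or 3 or BITC library 1 or 2 (largest edgeR adjusted p 0.198). With the offsets SLC7A5 was not called (log2 fold change −0.01, edgeR adjusted p = 0.813). PHGDH and SLC3A2 kept their calls with the offsets, at −0.27 and 0.17. Of 19 unfolded protein response genes 2 rose, and 0 did so with the offsets.

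Cytoskeletal, mitochondrial and ribosomal genes changed, and the number of calls in the 12-library model rested on ZA library 1. Of 24 actin genes 9 fell and 1 rose (7 and 3 with the offsets, 1 and 0 with 12 libraries, 9 and 1 with the 11 without ZA library 1), among them MYL6, a myosin light chain, from 319 ± 8.18 to 237 ± 23.4 CPM, and TAGLN2 from 510.4 ± 13.1 to 421 ± 18.7 CPM. Of the 13 mitochondrially encoded genes 9 rose (7 with the offsets, 0 with 12 libraries, 10 with the 11). MT-CO2, a subunit of cytochrome oxidase, had 3618, 3543 and 3712 CPM with vehicle and 4354, 4268 and 4039 CPM with BITC (log2 fold change 0.22 with SE 0.0307, edgeR adjusted p = 1.34e-06). BITC library 3 had the lowest level of the treated libraries for MT-CO1, MT-CO2, MT-CYB, MT-ND1 and MT-ND4. MT-ATP8 had the largest rise by the naming rule, from 8.11 ± 0.974 to 18.5 ± 3.13 CPM (log2 fold change 1.19 with SE 0.122, edgeR adjusted p = 7.38e-10), but it overlaps MT-ATP6, and its adjusted p in edgeR was 0.242 with 12 libraries and 4.86e-11 with the 11. Cytosolic ribosomal proteins went both ways, 13 higher and 8 lower of 41 (12 and 8 with the offsets), with RPL36 at −0.45 and RPS15 at 0.28. With 12 libraries 1 rose and 0 fell, and with the 11 the counts were 12 and 7. The mitochondrial share of counts, given above, moved with these groups, and its part in them was not tested.

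Interferon-stimulated genes fell in 5 of 32 cases and rose in 0 (3 fell and 1 rose with the offsets). IFIT1, IFIT2 and IFIT3, which bind viral RNA or each other, fell by 0.33, 0.22 and 0.23. The call was lost for IFIT2 without vehicle library 1 or 2 or BITC library 1 (largest edgeR adjusted p 0.118). In the other lists, to be read against 4.48% of all genes higher and 5.29% lower, at most 3 genes were called in either direction. Hypoxia and glycolysis had 0 higher and 2 lower of 31, PFKL and SLC16A3, but 5 higher and 1 lower with the offsets. The nuclear-encoded respiratory chain had 3 higher and 3 lower of 28 (4 and 6 with the offsets), autophagy 3 and 2 of 27 (3 and 2), YAP targets 1 and 2 of 20 (1 and 4) and tubulins 1 and 1 of 14 (2 and 0). There was 1 lower of 11 genes of metallothioneins and zinc transport and 1 higher of 10 histones, with and without the offsets.

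**Figure D4:**
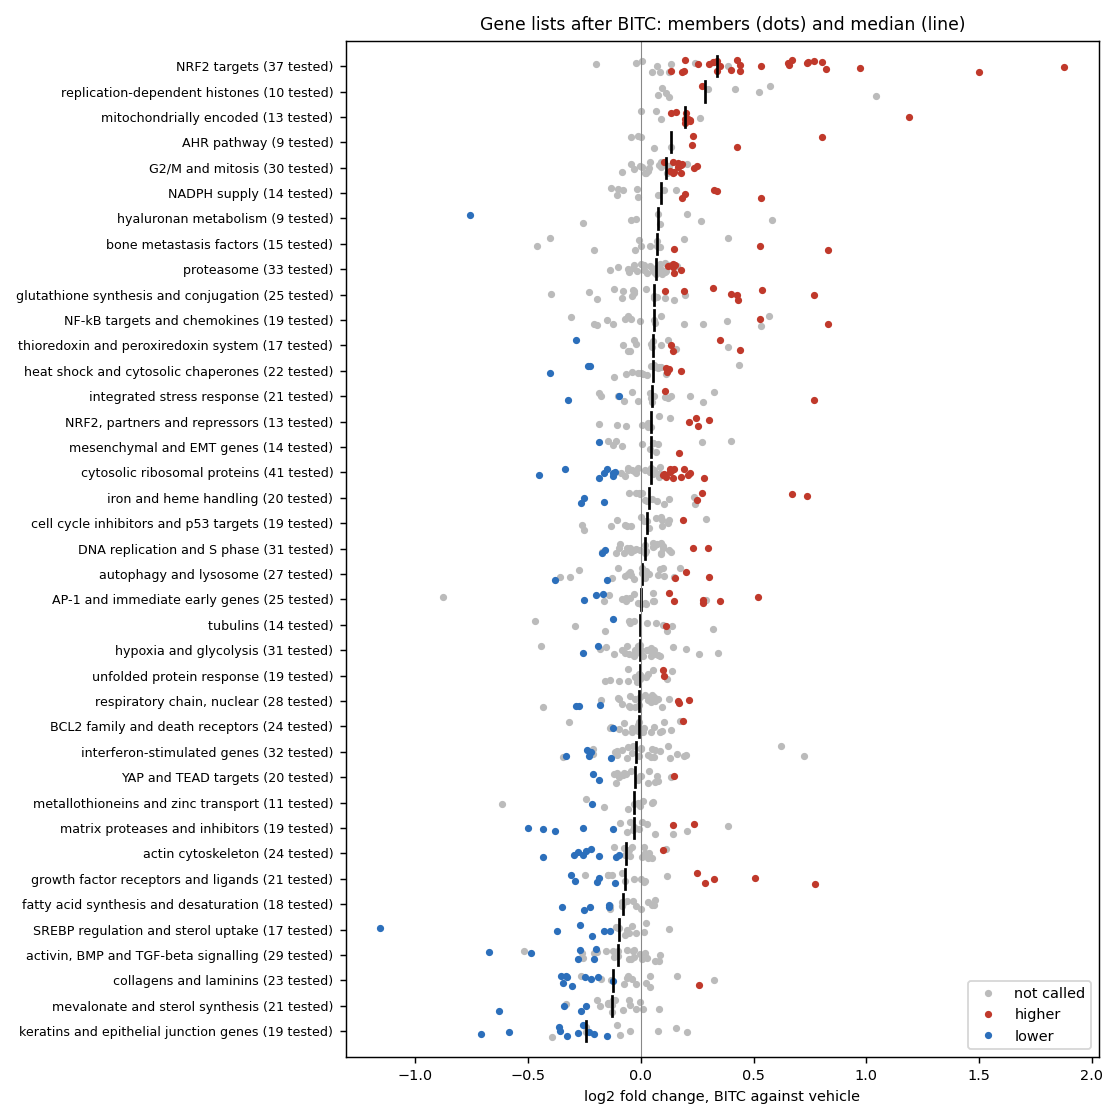
Log2 fold change of BITC against vehicle (x axis) of the tested members of each pathway and cell structure list (y axis, dots; the 5 lists of cell type markers are not drawn), red where called higher, blue where called lower and grey where not called; black lines are list medians. Among the lists drawn, NRF2 targets have the highest median (0.34) and keratins and epithelial junction genes the lowest (−0.24).

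In all, 212 called genes belonged to a list and 1185 to none. PTGR1, a reductase of prostaglandins and reactive aldehydes, had the smallest p among higher genes outside the lists. The level of PTGR1 was 63.3, 61.1 and 61.8 CPM with vehicle and 100.5, 99.96 and 104 CPM with BITC. No BITC library came near the vehicle libraries (log2 fold change 0.71 with SE 0.0496, edgeR adjusted p = 4.75e-15). ALDH3A2, which oxidizes fatty aldehydes, rose from 51.2 ± 1 to 68.8 ± 1.63 CPM (log2 fold change 0.42 with SE 0.0547, edgeR adjusted p = 2.03e-07), and ODC1, the first enzyme of polyamine synthesis, from 320.1 ± 5.42 to 391 ± 6.09 CPM. TMEM71 and the channel gene PANX2 rose by 0.73 and 0.80. The pseudogenes AC010343.1, RPSAP47 and MTATP6P1 rose by 1.13, 1.15 and 0.44, as did GPR89A by 0.96, and none of these 4 was called in the 12-library model (adjusted p between 0.28 and 0.373 in edgeR). Without ZA library 1 that model called the 3 pseudogenes and not GPR89A (adjusted p = 0.243 in edgeR). Reads of such copies cannot be assigned with certainty. RTN4R, a receptor of axon growth inhibitors, had the largest fall by the naming rule, from 6.67 ± 1.02 to 3.66 ± 0.998 CPM (log2 fold change −0.86 with SE 0.184, edgeR adjusted p = 0.00108). MRPS28, MISP and SEMA5A fell by 0.79, 0.74 and 0.69 (the call was lost for MISP without BITC library 1 (largest edgeR adjusted p 0.0569)), and ARHGAP45, PPME1 and ADAMTS15 by 0.47, 0.32 and 0.39.

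The same addition of BITC was made in the 6 libraries with 1 µM ZA, none of which entered the comparison above. Of the 1389 called genes also tested there, 734 had the same sign (52.8%), against 50.8% of all genes tested in both. ZA library 1 stands apart from its replicates, and without it the shares were 72.2% of 1391 and 57.6%. Among genes that fell the share was 78.7% without ZA library 1 and 61.1% with it, and among genes that rose it was 64.5% and 43.1%. Of called genes with a fold of 1.25 to 1.5, 69.9% had the same sign with ZA library 1 and 86.3% without it, and for folds under 1.25 these shares were 48.1% and 68.4%. From 1.5-fold upwards they were 65.3% and 81.0%. Among all genes tested in both, the shares were 60.3% and 64.1% for folds of 1.25 to 1.5. Under 1.25 they were 49.9% and 56.9%, and from 1.5-fold upwards 52.0% and 60.2%. In those libraries 229 genes were called (1.59%), 71 of which were among the genes called without ZA and in the same direction (31.0% of the 229, 5.11% of the 1389). Another 12 of the 1389 were called in the opposite direction, and of all genes tested in both 1.02% were called there with the sign they had without ZA. Without ZA library 1, 2015 were called (13.6%). Of these 419 were called the same way in both comparisons (20.8% of these, 30.1% of the 1391) and 69 in opposite directions, while 9.79% of all genes tested in both were called there with the sign they had without ZA.

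Some NRF2 targets were higher there too. In BITC+ZA against ZA, 16 of the 37 targets tested without ZA rose and 0 fell (1.14% of all genes rose), and 23 rose without ZA library 1 (6.41% of all). The log2 fold changes without and with ZA stood at 0.80 and 0.70 for NQO1, 0.77 and 0.88 for SLC7A11, 0.74 and 0.59 for FTL, 0.44 and 0.49 for TXNRD1 and 0.97 and 0.71 for PIR. ME1, another target that rose without ZA, had 0.32 and 0.04. It was not called with ZA (adjusted p = 0.805 in edgeR, or 0.681 without ZA library 1). Keratins and junction genes fell in 4 cases and rose in 0 (0.452% of all genes fell), or 12 without ZA library 1 (7.22% of all). CEMIP, INHBA and PLAT fell there by 0.47, 0.49 and 0.50 and IL11 rose by 0.43. Sterol synthesis genes had 0 calls, or 7 lower without ZA library 1. Fatty acid genes had 0 calls, or 3 lower without ZA library 1. Of these SCD had a log2 fold change of −0.15 (adjusted p = 0.156 in edgeR), or −0.17 without ZA library 1 (adjusted p = 0.000613 in edgeR). Of the 41 ribosomal protein genes, 0 were called in those 6 libraries, and 33 fell once ZA library 1 was left out. CXCL8 had a log2 fold change of −0.20 there and was not called. Its level was already higher with ZA alone than with vehicle. It stood at 30.9, 27.7 and 23.9 CPM in ZA libraries 1 to 3, against 18.6, 19.2 and 20.2 CPM with vehicle. With BITC+ZA it stood at 24.9, 24.3 and 21.5 CPM. The ZA and BITC+ZA levels were scaled over 12 libraries and the vehicle levels over 6. The difference between the effects of BITC with and without ZA was called for 425 of 14950 genes (2.84%), and for 854 without ZA library 1 (5.59%). CXCL8 was among the 425, with a difference of −1.05 on the log2 scale (edgeR adjusted p = 0.000153). For FTL the difference was −0.17, not called over 12 libraries (edgeR adjusted p = 0.0966) but called without ZA library 1 (edgeR adjusted p = 0.00469). For NQO1, SLC7A11, TXNRD1 and PIR it was called in neither fit. This test uses the BITC and vehicle libraries again.

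**Figure D5:**
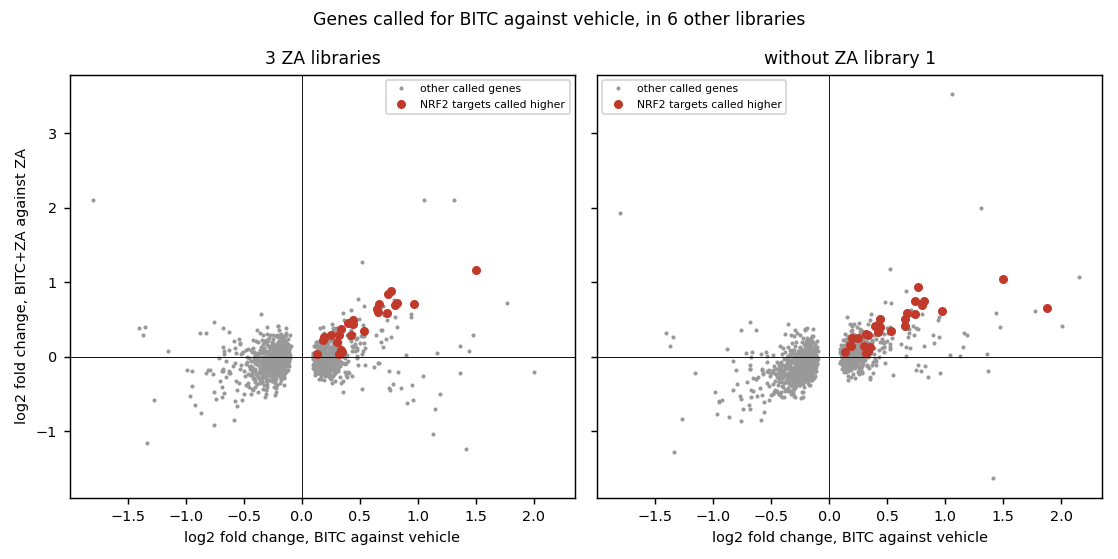
Log2 fold change of BITC+ZA against ZA (y axis) plotted against BITC against vehicle (x axis) for genes called in the latter and tested in both, with the 3 ZA libraries (left) and without ZA library 1 (right). NRF2 targets called higher (red) lie above 0 on both axes; among all called genes (grey and red) 52.8% have the same sign on the left and 72.2% on the right.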

How the data were processed

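RNA sequencing libraries of 3 vehicle and 3 BITC cultures were used, with the 3 ZA and 3 BITC+ZA libraries for the comparison in other samples. Per the submitters' processing notes, HISAT2, DESeq2 1.20.0 and GRCh38 (hg38) were used; no source used here names the read counter, annotation release or strand setting, so overlapping and antisense genes cannot be told apart. The authors deposited raw counts per gene for each library, not pooled, per the file headers. The authors also deposited FPKM values, fragments scaled to the length of the gene and the size of the library. The authors' fold changes and p-values were not used, nor were 72 columns of normalized values per library. Counts were joined by gene identifier over 6 tables, with 0 conflicts and 4593 missing values entered as 0.

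Counts were tested in edgeR 4.0.16 (R 4.3.3) on the 6 libraries (TMM normalization, filterByExpr, glmQLFit with robust estimation, two-sided glmQLFTest), with Benjamini-Hochberg adjustment over the 14296 genes tested. The SE of a log2 fold change is its size over the square root of F. GC and length trends were removed with smooth fits (mgcv 1.9.3) entered as offsets. The effect of BITC with ZA minus that without was tested as an interaction over 12 libraries. Alternatives were DESeq2 1.42.0, limma 3.58.1 on log2(FPKM + 1), other filters, a replicate block and leaving out each library.

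In counts simulated for BITC against vehicle over 14296 genes, the test recovered 56% of 1.25-fold changes, 86% of 1.5-fold and of 2-fold changes and 98% of 3-fold changes. Of the calls in the simulation, 6.32% were false. It changed 50 genes at each fold and held no trend on GC content and no library standing apart. It therefore gives no error rate for the calls reported above. Replicates differed by more than sampling noise in every pair of libraries of these 2 groups. The members and lists were chosen with earlier results of these data known, and lists are described by counts and medians without a set test. Named genes are the 10 largest changes in each direction among called protein-coding genes with at least 5 CPM and no overlap, up to 6 called members with the smallest p in each list with at least 2 calls, a further list of 26 genes, and the 10 smallest p in each direction outside the lists; others are named as such. The values of some genes chosen by this rule are not reported here. Of 874 symbols in 44 lists, 835 had counts and 789 were tested. Promoters came from RefSeq (GRCh38.p14), matched by symbol.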

Additional observations from a re-analysis of the deposited data

Results flagged for a closer look

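For 27 of the named genes the effect of BITC with ZA differed from its effect without ZA by the interaction test over 12 libraries (edgeR, called at an adjusted p under 0.05, as were 425 of 14950 genes, 2.84%). The interaction uses the same BITC and vehicle libraries as the comparison reported above, and it also rests on ZA library 1, without which 854 genes were called (5.59%). Of the 196 named genes 185 were called with BITC alone, and the interaction subtracts that same effect. A difference of opposite sign was therefore favoured by the choice of genes. Among the 1397 genes called with BITC alone, the interaction was called for 197, and all 197 were opposite in sign to the BITC change. The count of 27 is thus no measure of an effect of ZA. Values are the log2 effect with ZA minus the log2 effect without it.

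Among genes that rose with BITC alone, CXCL8 had the largest difference, −1.05, or −0.96 without ZA library 1. The redox genes GSTM3, TXN, GLRX3 and NFE2L2 had −0.37, −0.31, −0.31 and −0.34. Without ZA library 1 these were smaller in size, at −0.36, −0.24, −0.25 and −0.23. HSP90AA1 had −0.24, and the proteasome genes PSMC4, PSMG1 and PSMB1 had −0.25, −0.39 and −0.29. Without that library HSP90AA1 had −0.18 and the proteasome genes had −0.23, −0.27 and −0.26. CCNB1, PTTG1 and STMN1 differed by −0.29, −0.34 and −0.30. UQCRFS1, NDUFB5 and NDUFA4 of the respiratory chain differed by −0.29, −0.42 and −0.38, and the ribosomal genes RPS15 and RPS19 by −0.53 and −0.43.

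Among genes that fell with BITC alone, LAMA3, LAMA5 and COL12A1 had 0.59, 0.47 and 0.28, and HSPG2, FLG and AHNAK 0.59, 0.56 and 0.53. ACACA, EGR1 and IRS1 had 0.32, 0.30 and 0.31. MKI67, not called with BITC alone, had 0.32.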

How the results depend on the processing

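The 1397 calls (641 higher, 756 lower) became 266 (116 and 150) with all 12 libraries in 1 model, 922 (420 and 502) with DESeq2, 482 (216 and 266) with limma on log2(FPKM + 1) and 486 (218 and 268) at a pseudocount of 0.1. Leaving out 1 library gave 709 to 2006 calls (309 to 906 higher, 394 to 1100 lower), and 476 genes were called in every such fit as well as with all 6 libraries. Size factors, filters, the fit without robust estimation and GC and length offsets gave 1294 to 1419, and the joint model without ZA library 1 gave 1496. The replicate numbers did not pair the libraries (correlation of the deviations of same-numbered libraries −0.01, −0.03 and 0.05), and the replicate block gave 1575 calls, or 1262 with GC and length offsets. For the 229 BITC+ZA against ZA calls (164 higher, 65 lower), the model of 12 libraries gave 1039 (495 and 544), the block 183, and leaving out 1 library 22 to 2015 (18 to 948 and 4 to 1067). The 425 interaction calls became 854 (382 higher, 472 lower) without ZA library 1 and 563 with the block. A core with a further A at its end was found in 4.78% of promoters of genes that rose and 2.70% of those that fell. Of 196 genes chosen by the naming rule, 3 changed sign under an alternative, and none of these was called: HMOX1 at −0.012 to 0.215 without 1 library, KEAP1 at −0.0043 and −0.0045 with limma on FPKM and at −0.025 to 0.036 without 1 library, and DNAJB1 at 0.00033 without a filter, 0.016 with GC and length offsets, with or without the block, and −0.033 to 0.016 without 1 library. At 3 libraries a group, changes of 1.25-fold were often missed in simulation, and the cause of the differences between fits was not tested.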
